A study of Mus musculus with 20 samples.

Results

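The genes described here are the 9 genes by which resting microglia of the mouse brain are commonly recognized, P2ry12, P2ry13, Tmem119, Cx3cr1, Csf1r, Gpr34, Trem2, Tyrobp and Siglech. They were taken as a named list, by matching the Ensembl identifiers of the expression table to mouse symbols, and all 9 were found among its 19463 genes and passed the filter on low values in every comparison. Whole brains of male C57BL/6J mice were measured by poly-A RNA-Seq in 4 groups of 5 mice, which were Katnal2-KO and wild-type (WT) mice at 3 weeks (P21) and other Katnal2-KO and WT mice at 10 weeks (P70). The KO allele came from the EUCOMM Katnal2 tm1a ES cells, was converted by Protamine-Flp to a floxed allele, and was then deleted by the cell-permeable Cre HTNC in early embryos, so that the deletion was not restricted to a cell type. The mice had been backcrossed to C57BL/6J for more than 5 generations, no group received a treatment, and mice were weaned at about the younger age. The study compared KO with WT mice at both ages to learn how the brain transcriptome changes when Katnal2, a katanin-like protein linked to autism, is lost.

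Microglia are the resident macrophages of the brain. They enter it before birth and renew themselves locally, and in the healthy brain they scan their surroundings with motile processes. Much of the set named above senses signals released by neurons and other cells. P2ry12 and P2ry13 are Gi-coupled receptors for ADP, and P2ry12 steers microglial processes towards damaged cells. Gpr34 is a receptor for lysophosphatidylserine, and Cx3cr1 is the receptor for the neuronal chemokine fractalkine. Csf1r is the receptor tyrosine kinase on which microglial survival depends. Trem2 binds lipids and lipoproteins and signals through the membrane adaptor Tyrobp, with which the lectin Siglech also pairs. Tmem119 is a membrane protein used as a microglial marker. Several of the genes are known to fall when microglia become activated, whereas Trem2 and Tyrobp are needed for activation by lipids and dying cells. In RNA from a whole brain, fewer microglia and less RNA per microglia cannot be told apart.

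In GRCm38 (GENCODE M21 annotation) P2ry12 lies at chr3:59216272-59262871 and P2ry13 next to it at chr3:59207892-59210882, both on the minus strand. The other minus-strand genes are Tmem119 at chr5:113793729-113800516 and Cx3cr1 at chr9:119901616-120069879. On the plus strand lie Gpr34 at chrX:13632089-13640858, Trem2 at chr17:48346401-48354147, Tyrobp at chr7:30413760-30417585 and Siglech at chr7:55768178-55778925. All 9 genes are protein-coding, and Csf1r is placed further below.

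The set reaches from percentile 2.0 to percentile 93.0 of GC content among the genes of the table, and this bears on the results below. Gpr34 has the lowest GC content of the 9 at 37.1%, followed by P2ry12 at 38.6%, P2ry13 at 44.7%, Siglech at 45.5% and Cx3cr1 at 50.3%. Csf1r has 54.5%, Tyrobp 54.8%, Trem2 57.5% and Tmem119 59.1%. The median over all genes is 49.7%, and the least and most GC-rich groups, when genes are split evenly into 5, end at 43.7% and begin at 55.6%. The coding sequences of the members at the ends of this range show the contrast, and the 120 bases from the start codon are given here with G and C in capitals. For Gpr34 they lie at chrX:13639234-13639353 on the plus strand in exon 4 of 4, with 41.7% GC, and for Tmem119 at chr5:113795619-113795738 on the minus strand in exon 2 of 2, with 64.2% GC.
Gpr34: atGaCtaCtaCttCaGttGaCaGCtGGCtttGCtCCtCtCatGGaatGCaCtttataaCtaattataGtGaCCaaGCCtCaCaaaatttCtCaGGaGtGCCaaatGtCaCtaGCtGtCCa
Tmem119: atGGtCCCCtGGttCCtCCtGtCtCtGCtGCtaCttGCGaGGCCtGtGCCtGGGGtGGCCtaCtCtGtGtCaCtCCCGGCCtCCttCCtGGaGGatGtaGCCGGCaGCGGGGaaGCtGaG

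The promoters of the neighbouring ADP receptor genes P2ry12 and P2ry13 are shown because the results below turn on them. RefSeq promoters (GRCm38.p6) were matched for 5 of the 9 genes, which were P2ry12, P2ry13, Siglech, Cx3cr1 and Trem2, as windows of 300 bases reaching 50 bases past the start. Microglial genes are known to be bound by PU.1, a factor that recognizes purine-rich sites with a GGAA core. The letters GAGGAAGT were found on either strand in 0 of the 5 windows, against 3.2% of 32851 promoters. The overlapping shorter strings were more frequent. GAGGAA was found in 3 of the 5 (P2ry13, Siglech and Trem2), against 28.3% of all promoters, and GGAAGT in 2 of the 5 (P2ry12 and Siglech), against 23.8%. A match describes the letters only and is not a binding site. The 250 bases before each start are given with the matched letters in capitals, for P2ry12 at chr3:59262986-59263235 and for P2ry13 at chr3:59210883-59211132, both on the minus strand.
P2ry12: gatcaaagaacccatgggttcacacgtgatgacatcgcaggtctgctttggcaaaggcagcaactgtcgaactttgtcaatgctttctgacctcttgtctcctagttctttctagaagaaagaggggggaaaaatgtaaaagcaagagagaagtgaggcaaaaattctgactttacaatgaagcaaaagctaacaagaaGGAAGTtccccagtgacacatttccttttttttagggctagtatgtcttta
P2ry13: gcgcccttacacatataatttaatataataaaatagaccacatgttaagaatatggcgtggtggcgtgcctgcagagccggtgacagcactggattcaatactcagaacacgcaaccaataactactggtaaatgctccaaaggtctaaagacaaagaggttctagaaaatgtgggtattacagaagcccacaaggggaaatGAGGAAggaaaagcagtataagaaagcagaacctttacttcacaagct
The capitals begin 51 bases before the start of P2ry12 and 48 bases before that of P2ry13.

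Values are normalized counts, in which the authors had scaled each mouse's estimated counts with DESeq2, so that the values of each mouse sum to nearly the same total whatever its depth. Low values lay around multiples of 1 read but were spread by factors that differed between genes, so whole reads could not be recovered. The depth read from the spacing of the low values was therefore approximate, at about 26100000 to 35700000 reads at P21 and 23400000 to 28400000 at P70, so the younger brains were sequenced more deeply. Katnal2 itself had 88.99 ± 8.72 normalized counts in P21 KO and 107 ± 7.38 in P21 WT mice, and 105 ± 11.8 in P70 KO and 122 ± 16.4 in P70 WT mice (mean ± SD, n = 5). It was lower in every P21 KO mouse than in any P21 WT mouse (p = 0.00794, two-sided, by exact permutation of the mice, which with 5 mice a group can go no lower), whereas the P70 groups overlapped (p = 0.0794). Over all genes Katnal2 did not pass the test at either age (limma, adjusted p = 0.9999 at both). A transcript that lacks only some exons still yields reads over the rest of the gene. Replicate 5 of P70 KO and replicate 5 of P70 WT stood apart from the other mice of their groups by base composition. Genes under 43.7% GC had a median log2 difference from the other 4 mice of -0.53 in the KO mouse and -0.43 in the WT mouse, and genes over 55.6% GC had medians of 0.46 and 0.37. In the other P70 mice these medians stayed between -0.15 and 0.17. Several of the results that hold P70 mice are therefore also given without this pair.

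All 9 genes were readily measured in every mouse. Their values summed to 4057 to 5606 normalized counts per mouse. Per kilobase of exon, which allows levels to be compared between genes, Csf1r was the highest of the 9 in every group, with 365 ± 47.3 (SD, n = 5) normalized counts per kb in P21 WT mice. Tyrobp followed with 269.7 ± 30.3 and P2ry12 with 255 ± 20.7, and these neighbours overlapped between mice. Below them stood Tmem119 with 187 ± 17.3 and Cx3cr1 with 173 ± 14.8 normalized counts per kb, which also overlapped, and both were above Gpr34 in every P21 WT mouse. The lower receptors were Gpr34 with 90.8 ± 5.95, P2ry13 with 73.4 ± 2.96 and Siglech with 63.5 ± 7.90 normalized counts per kb. Trem2 came last with 43.4 ± 5.22, but its annotated exons total 4946 bases against 1088 in its longest coding transcript, and on that shorter length it ranked 4th, and Siglech ranked 7th, above Gpr34 and P2ry13. Csf1r lies on the plus strand at chr18:61100598-61132149 and shares 873 exonic bases, 15.1% of its exons, with Hmgxb3 on the opposite strand, and the kit used does not mark strand. Hmgxb3 had group means of 1444 to 1484 normalized counts and passed the test in no comparison. The order in P21 KO mice was that of P21 WT mice. At P70 Tmem119 stood above P2ry12 in both genotypes, with ranges that overlapped. In P21 WT mice P2ry12 had been above Tmem119 without overlap. P2ry13 and Siglech, whose ranges overlapped, changed places in P70 WT mice.

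**Figure D1:**
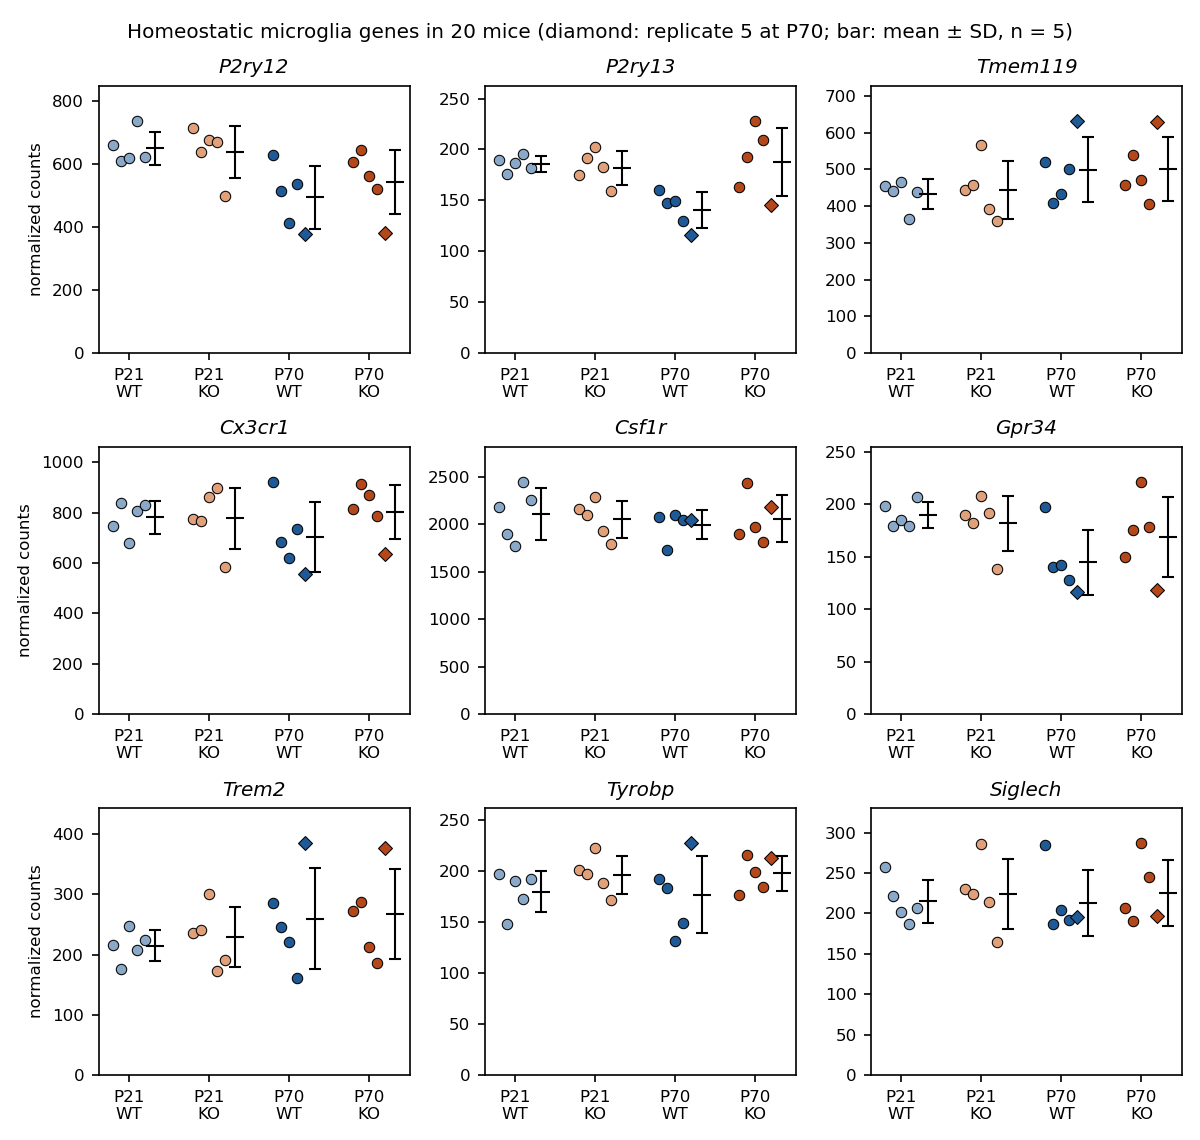
Normalized counts of the 9 homeostatic microglia genes in 20 mice (vertical axes, each starting at 0) by age and genotype. Each point is a mouse, diamonds are the replicate 5 mice at P70, and the bar beside each group is the mean ± SD (n = 5). In P70 WT mice all 5 points for P2ry13 lie below those of P21 WT mice, and the diamonds are at the bottom of their groups for P2ry12, P2ry13, Cx3cr1 and Gpr34 and at the top for Tmem119 and Trem2.

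At P21 none of the homeostatic microglia genes passed the test between KO and WT mice. In limma, 0 of the 9 passed an adjusted p of 0.05, as 0.0% of the 17610 genes tested did, and 0 of the 9 had an unadjusted p under 0.05, which 429 genes (2.44%) had. Of the 9 log2 differences, 4 were above 0 and 5 below, with a median of -0.02 beside 0.0042 over all genes tested. The largest were those of Tyrobp at 0.12 (95% interval -0.09 to 0.34), Trem2 at 0.07 (-0.23 to 0.37) and Gpr34 at -0.07 (-0.30 to 0.16). For the ADP receptor P2ry13 the interval of the difference was -0.21 to 0.15, and for P2ry12 -0.23 to 0.17. The interval of P2ry13 at P70, 0.10 to 0.72 around a difference of 0.41, overlaps that at P21. The SD was larger in KO than in WT mice for 7 of the 9 genes. P21 KO replicate 5 was the lowest of its group in 8 of the 9 genes and replicate 3 the highest in 7, and Cx3cr1 ranged from 586 to 896 normalized counts in KO mice against 681 to 838 in WT mice.

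At P70 the ADP receptor P2ry13 had the largest difference of the 9 between genotypes, in the direction of higher values in KO mice. Its values were 163, 193, 228, 209.7 and 146 normalized counts in the P70 KO mice and 159.8, 147, 149, 129.9 and 116 in the P70 WT mice, in replicate order. Of the 5 KO mice, 4 were above all WT mice, and KO replicate 5, a mouse that stands apart by base composition, was within the WT range. The means were 188 ± 33.7 in KO and 140.3 ± 17.5 in WT mice (SD, n = 5), a log2 difference of 0.41 (SE 0.14, 95% interval 0.10 to 0.72). The unadjusted p was 0.0150 in limma and 0.0397 in the exact two-sided permutation test, but the difference did not pass once adjusted over all 17613 genes (limma, adjusted p = 0.9999). At this age 0.0% of genes passed, 199 genes (1.13%) had an unadjusted p under 0.05, and 0.59% had it in the direction of higher values in KO mice. Without the replicate 5 mice of both genotypes the log2 difference was 0.43.

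No other homeostatic microglia gene reached an unadjusted p under 0.05 at P70. All 9 log2 differences were above 0, as were 47.8% of those of all genes tested, and their median was 0.13 beside -0.0047 over all genes. The genes are not independent of each other, since their levels vary together from mouse to mouse. After P2ry13 came Gpr34 with a log2 difference of 0.21 (95% interval -0.18 to 0.61) and Cx3cr1 with 0.20 (-0.10 to 0.51). Cx3cr1 had 814, 913, 870.2, 785 and 634 normalized counts in P70 KO mice and 922, 682, 621, 735 and 557 in P70 WT mice, and both the highest and the lowest mouse were WT. Tyrobp differed by 0.18 (-0.13 to 0.50), P2ry12 by 0.13 (-0.23 to 0.50), and Siglech by 0.08 (-0.25 to 0.41). Trem2 differed by 0.06 (-0.46 to 0.57), Csf1r by 0.04 (-0.16 to 0.24) and Tmem119 by 0.01 (-0.31 to 0.32). The interval of Csf1r was the narrowest of these 3 and that of Trem2 the widest.

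**Figure D2:**
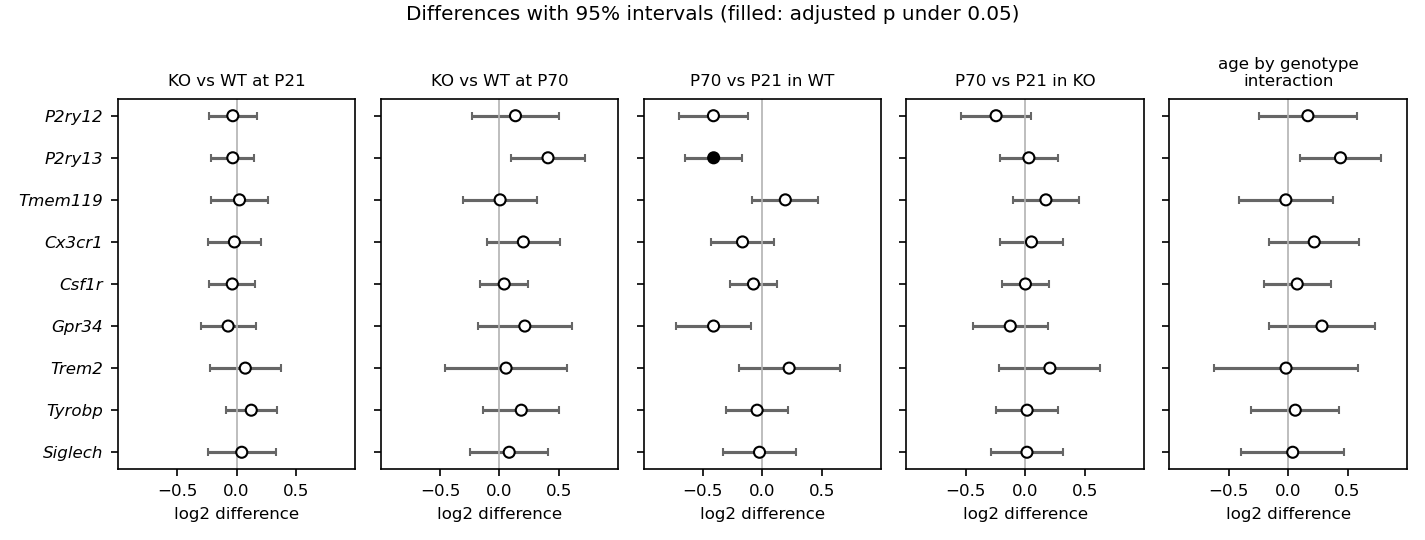
Log2 differences (horizontal axes) with 95% intervals from limma for the 9 genes (rows) in the 5 comparisons, n = 5 mice per group. Filled points have an adjusted p under 0.05, which only P2ry13 between ages in WT mice has, at -0.41, and in the interaction panel values to the right mean that the change with age was more positive in KO mice.

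Between the ages, P2ry12, P2ry13 and Gpr34, the 3 members of lowest GC content, had lower means at P70 in WT mice. Of the 9 genes P2ry13 alone passed the test. P2ry13 had 189, 176, 187, 195 and 181 normalized counts in P21 WT mice and 159.8, 147, 149, 129.9 and 116 in P70 WT mice. The groups did not overlap, which 5.6% of the 17637 genes tested also showed in the direction of lower values at P70. The means were 186 ± 7.48 and 140.3 ± 17.5 (SD, n = 5), a log2 change of -0.41 (SE 0.12, 95% interval -0.65 to -0.17), and P2ry13 fell with an adjusted p of 0.0241 in limma and p = 0.00794 in the exact two-sided permutation test. The call rested on single mice. The adjusted p was 0.0619 without P21 WT replicate 4, 0.0567 without P70 WT replicate 4 and 0.0638 without P70 WT replicate 5, with log2 changes of -0.39, -0.38 and -0.34. With the replicate 5 mice of both genotypes left out it was 0.0184, and with the trend on GC content removed from each mouse 0.0127. Altogether 1 of the 9 genes passed and fell, where 11.1% of all genes passed, 5.62% falling and 5.53% rising, and 3 of the 9 had an unadjusted p under 0.05, where 24.4% of all genes did.

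P2ry12 and Gpr34 had log2 changes of the same size in WT mice without passing the test. P2ry12 had 659, 609, 618, 737 and 622 normalized counts in P21 WT mice and 627, 515, 413, 538 and 379 in P70 WT mice. All but 1 of the P70 mice were below every P21 mouse, and the remaining one, replicate 1, was above 3 of them. Its log2 change was -0.41 (SE 0.14, 95% interval -0.71 to -0.12), with an adjusted p of 0.0640 in limma and an exact permutation p of 0.0317. The P2ry12 call depended on the processing, as P2ry12 passed in limma under 6 of 22 alternatives, with adjusted p values up to 0.159 under the others. With the GC trend removed the adjusted p was 0.0279, but the log2 change shrank to -0.34. Without both replicate 5 mice these values were 0.0432 and -0.32, and without P70 WT replicate 1 they were 0.0276 and -0.50. Gpr34 had 198, 179, 185, 179 and 207 normalized counts in P21 WT mice and 197, 140.3, 142, 128 and 117 in P70 WT mice, where again replicate 1 alone was within the P21 range. Its log2 change was -0.41 (SE 0.15, 95% interval -0.73 to -0.09), with an adjusted p of 0.0893 in limma and an exact permutation p of 0.0317. Gpr34 passed in limma under 1 of 22 alternatives, without P70 WT replicate 1 (adjusted p = 0.0260). Its log2 change was -0.34 without the replicate 5 mice of both genotypes (adjusted p = 0.0803). With the GC trend removed it was also -0.34 (adjusted p = 0.112).

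The remaining receptors and adaptors did not pass the test between ages in WT mice, and their intervals all included 0. Cx3cr1 had a log2 change of -0.17 (95% interval -0.44 to 0.10) and Csf1r of -0.07 (-0.27 to 0.12). Tyrobp had a log2 change of -0.04 (-0.31 to 0.22), and Siglech of -0.02 (-0.33 to 0.28). The GC-rich members had values above 0, with 0.19 (-0.09 to 0.47) for Tmem119 and 0.23 (-0.20 to 0.65) for Trem2. Trem2 had 216, 177, 248, 208 and 223 normalized counts in P21 WT mice and 286, 246, 221, 161 and 386 in P70 WT mice, so that the P70 mice included both the lowest and the highest value, the latter in replicate 5. Without both replicate 5 mice the log2 change of Trem2 was 0.07, that of Tmem119 0.10 and that of Cx3cr1 -0.09. Over the 9 genes the median log2 change was -0.07 beside 0.0013 over all genes tested.

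In KO mice 0 of the 9 homeostatic microglia genes passed the test between ages, where 11.9% of all genes did (5.47% rising and 6.4% falling), and 0 of the 9 had an unadjusted p under 0.05, where 24.8% did. P2ry13 had 175, 192, 203, 183 and 159 normalized counts in P21 KO mice and 163, 193, 228, 209.7 and 146 in P70 KO mice. The P70 KO mice had both the highest and the lowest value, and the log2 change was 0.03 (95% interval -0.21 to 0.27). P2ry12 had 713, 637, 677, 668 and 497 normalized counts in P21 KO mice and 607, 643, 562, 521 and 381 in P70 KO mice. Its log2 change of -0.25 (95% interval -0.54 to 0.05) was in the direction seen in WT mice, and so was that of Gpr34 at -0.13 (-0.44 to 0.19). The lowest P2ry12 mice at both ages were the replicate 5 mice. Without both P70 ones the changes were -0.12 for P2ry12, -0.01 for Gpr34 and 0.12 for P2ry13. That of Cx3cr1 was 0.05 with them and 0.13 without. The median over the 9 genes was 0.02 beside -0.01 over all genes tested.

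Whether the change with age differed between genotypes was tested as an interaction over all 20 mice. P2ry13 had the largest value, with a log2 difference of 0.44 between the change in KO and the change in WT mice (SE 0.16, 95% interval 0.10 to 0.78). Its unadjusted p was 0.0139 in limma, and permuting genotypes within each age gave an exact two-sided p of 0.0244, but the adjusted p over all genes was 0.9999. In limma 0.0% of genes passed, 296 genes (1.68%) had an unadjusted p under 0.05 and 0.652% had it in the positive direction. Leaving out both replicate 5 mice gave 0.46 and removing the GC trend 0.45. The interaction, the genotype difference at P70 and the age change in WT mice share the P70 WT mice and are not independent of each other. For the other 8 genes the interaction ranged from -0.02 for Tmem119 and Trem2 to 0.28 for Gpr34, and the intervals all included 0.

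The replicate 5 mice at P70 showed the base composition of the genes in their values. In the KO mouse the log2 differences from the other 4 mice of the group were -0.61 for P2ry12, -0.60 for Gpr34, -0.43 for P2ry13, -0.41 for Cx3cr1 and -0.22 for Siglech. They were above 0 for the GC-richer genes, with 0.11 for Csf1r, 0.14 for Tyrobp, 0.43 for Tmem119 and 0.67 for Trem2. The WT mouse had the same signs, from -0.45 for P2ry12 to 0.78 for Trem2. Across the 9 genes the difference had a Pearson r of 0.91 with GC content in the KO mouse (Spearman rho 0.95) and 0.83 in the WT mouse (rho 0.82). These are correlations across genes of 1 library each, and genes are not independent replicates. With the trend over all genes removed they were -0.19 and 0.05. Cx3cr1, which lies near the median of GC content, kept differences of -0.44 and -0.41 in the KO and WT mouse after that removal. Trem2 kept 0.27 in the KO and 0.45 in the WT mouse, Gpr34 turned to 0.19 and 0.25, and Tyrobp had -0.14 and 0.25.

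**Figure D3:**
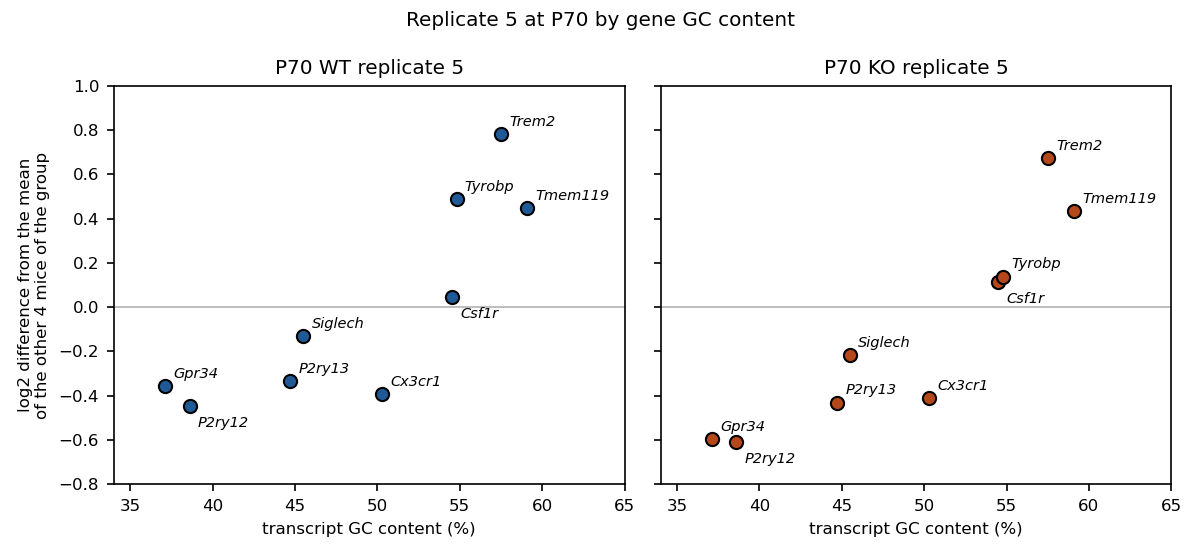
Log2 difference of P70 WT replicate 5 (left) and P70 KO replicate 5 (right) from the mean of the other 4 mice of the same group (vertical axes), against transcript GC content in percent (horizontal axes). Each point is one of the 9 genes, and in both mice the AT-rich P2ry12 and Gpr34 lie below 0 and the GC-rich Tmem119 and Trem2 above it.

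The 9 genes varied together from mouse to mouse, most plainly without this pair of mice. Over the deviations of 20 mice from their group means, 27 of the 36 pairs of genes had a positive Pearson r and 9 a negative one, with a median of 0.25 and a range of -0.32 to 0.88. The negative values were those of Trem2, Tmem119 or Tyrobp with P2ry12, P2ry13, Gpr34 or Cx3cr1. Without both P70 replicate 5 mice all 36 pairs were positive, with a median of 0.46 and a range of 0.18 to 0.85 over 18 mice. With the GC trend removed and all 20 mice kept, 35 of the 36 were positive, with a median of 0.41. The closest pairs over the 20 mice were P2ry13 with Gpr34 (r = 0.88, rho = 0.77) and P2ry12 with Cx3cr1 (r = 0.86, rho = 0.69). The closest pair changed without both P70 replicate 5 mice, where it was Gpr34 with Siglech (r = 0.85) and P2ry12 with Cx3cr1 had r = 0.79. With the GC trend removed and all 20 mice kept it was again Gpr34 with Siglech (r = 0.85). There P2ry12 with Cx3cr1 had r = 0.54, and it had 0.795 when both replicate 5 mice were left out as well. Over all 20 mice, the receptor Trem2 and its adaptor Tyrobp had r = 0.74 (rho = 0.78). Values of 1 mouse come from a single library, so the pairs share depth and composition, and the correlations are given as a description.

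**Figure D4:**
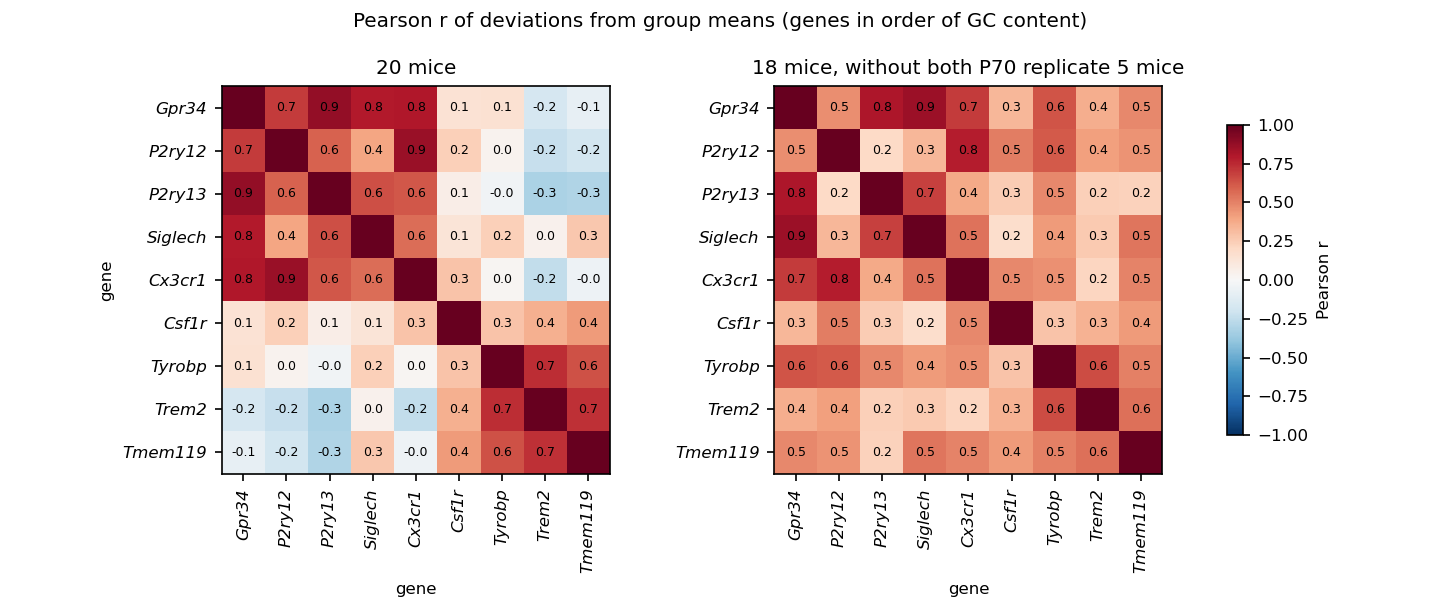
Pearson r between the deviations of the 9 genes from their group means (log2 scale), over 20 mice (left) and over 18 mice without both P70 replicate 5 mice (right), with genes in order of GC content from lowest (top and left) to highest. The negative cells on the left, down to -0.32, are absent on the right, where the lowest value is 0.18.

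The genes whose pattern over the 20 mice was most like that of the set were found by correlating each gene's deviations with the mean standardized deviation of the 9. Among the 10 most alike, Olfml3, a secreted microglial protein, had r = 0.82 (rho = 0.77, and r = 0.85 without both replicate 5 mice), and the lysosomal membrane protein Laptm5 had r = 0.76 (rho = 0.57). Immp1l, Ccdc80, Primpol, Hibch, Bbip1, Cebpzos and Cdh1 were also among them, with r from 0.76 to 0.83, and none of these 7 was in the list of microglia genes. Without the 2 mice farthest from the median of the mean deviation of the 9, r was 0.74 for Olfml3 and 0.51 for Laptm5. For these 7 it ranged from 0.64 (Cebpzos) to 0.79 (Hibch). With the GC trend removed and all 20 mice kept, r was lower for the AT-rich Immp1l (0.60), Bbip1 (0.54) and Hibch (0.50). It was then 0.81 for Ccdc80, 0.765 for Primpol, 0.76 for Cebpzos, 0.71 for Cdh1, 0.86 for Olfml3 and 0.67 for Laptm5. Among 39 further microglia genes the median r was 0.33 and 34 were positive, beside a median of 0.01 over 17628 other genes, of which 9087 were positive.

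Further microglia genes, of which 40 were listed and 39 passed the filter on low values, gave 1 call in the 5 comparisons. At P21 and at P70 0 of the 39 differed between KO and WT mice in limma after adjustment. The smallest unadjusted p at P21 was that of Csf3r, the receptor for G-CSF, with 114 ± 16.1 normalized counts in KO and 80.1 ± 8.48 in WT mice (SD, n = 5), a log2 difference of 0.50 (unadjusted p = 0.00136, adjusted p = 0.9999). Between ages Csf3r rose in WT mice to 129 ± 34.2 normalized counts, a log2 change of 0.65 (adjusted p = 0.00678). It was the only one of the 39 that passed in that comparison, where 11.1% of all genes did. In KO mice 0 of the 39 passed between ages, where 11.9% of all genes did. Ly86, which encodes an accessory protein of a toll-like receptor, had a log2 change of -0.31 in KO mice (adjusted p = 0.0734). The median log2 changes of the list between ages were -0.05 in WT and -0.02 in KO mice. Without both P70 replicate 5 mice, 2 of these genes passed in WT and 5 in KO mice, where 3731 and 3879 of all genes did.

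The ligands of Cx3cr1 and Csf1r did not pass the test. The fractalkine gene Cx3cl1 had group means of 17564 to 18094 normalized counts, Il34 of 1037 to 1178 and Csf1 of 571 to 624, and none of the 3 had an adjusted p under 0.05 in any comparison. Of the 24 ligands, enzymes and signalling partners listed, 22 could be tested between ages. Nt5e, the ectoenzyme that makes adenosine from AMP, fell from 287 ± 38.9 to 203 ± 16.7 normalized counts in KO mice (log2 change -0.49, adjusted p = 0.00435 in limma). It was the only one of the 22 to pass there, where 11.9% of all genes did. In WT mice 0 of the 22 passed, where 11.1% of all genes did, and the log2 change of Nt5e was -0.31 (adjusted p = 0.0755).

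Genes raised in activated microglia showed no common direction between ages. Of 26 listed, 21 were tested, and 4 passed in WT mice and 5 in KO mice, where 11.1% and 11.9% of all genes tested did. Many of these genes are also expressed by other brain cells. The ferritin heavy chain gene Fth1 rose in both genotypes, with log2 changes of 0.41 in WT (adjusted p = 0.0187) and 0.40 in KO mice (adjusted p = 0.0235). Cd9, a tetraspanin, fell by 0.59 in WT and by 0.62 in KO mice on the log2 scale (adjusted p = 0.000238 and 0.000121). Fabp5, a fatty acid-binding protein gene, fell by 0.55 in WT (adjusted p = 4.93e-05) and by 0.49 in KO mice (adjusted p = 0.000138). The protease gene Ctsl also fell, by 0.39 and by 0.32 (adjusted p = 0.00114 and 0.00571), and Ctsz rose in KO mice by 0.43 (adjusted p = 0.0372). In KO mice the count was 3, with 0 rising, without P21 KO replicate 1, 4 or 5 or without P70 KO replicate 2. The medians over the list were -0.04 in WT and 0.0097 in KO mice.

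Macrophages of the brain borders share several of the 9 genes, and some of their markers fell between the ages. Of 13 listed, 11 were tested, and 2 fell in WT mice and 3 in KO mice, where 5.62% and 6.4% of all genes tested fell. Leaving out 1 mouse gave 1 to 2 in WT mice, with 1 in 7 of the 10 cases, and 3 to 5 in KO mice, with 5 without P21 KO replicate 5. The coagulation factor gene F13a1 fell from 104 ± 10.1 to 65.9 ± 3.87 normalized counts in WT mice (adjusted p = 0.00834) and from 113 ± 23.8 to 60.7 ± 15.7 in KO mice (adjusted p = 0.000552). The mannose receptor gene Mrc1 fell in WT mice by 0.55 (adjusted p = 0.0407) and in KO mice by 0.76 on the log2 scale (adjusted p = 0.00534). The scavenger receptor gene Cd163 fell from 100.03 ± 20.02 to 50.4 ± 7.80 in KO mice (adjusted p = 0.000497). The median log2 change of the list was -0.27 in WT and -0.67 in KO mice. The summed level of the list was 1293 to 1549 normalized counts in P21 WT mice, 1275 to 1577 in P70 WT, 1117 to 1727 in P21 KO and 1175 to 1498 in P70 KO mice, so that the ages overlapped, and it was below that of the 9 genes in every group. In WT mice 1 of the 2 calls was lost with the GC trend removed.

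**Figure D5:**
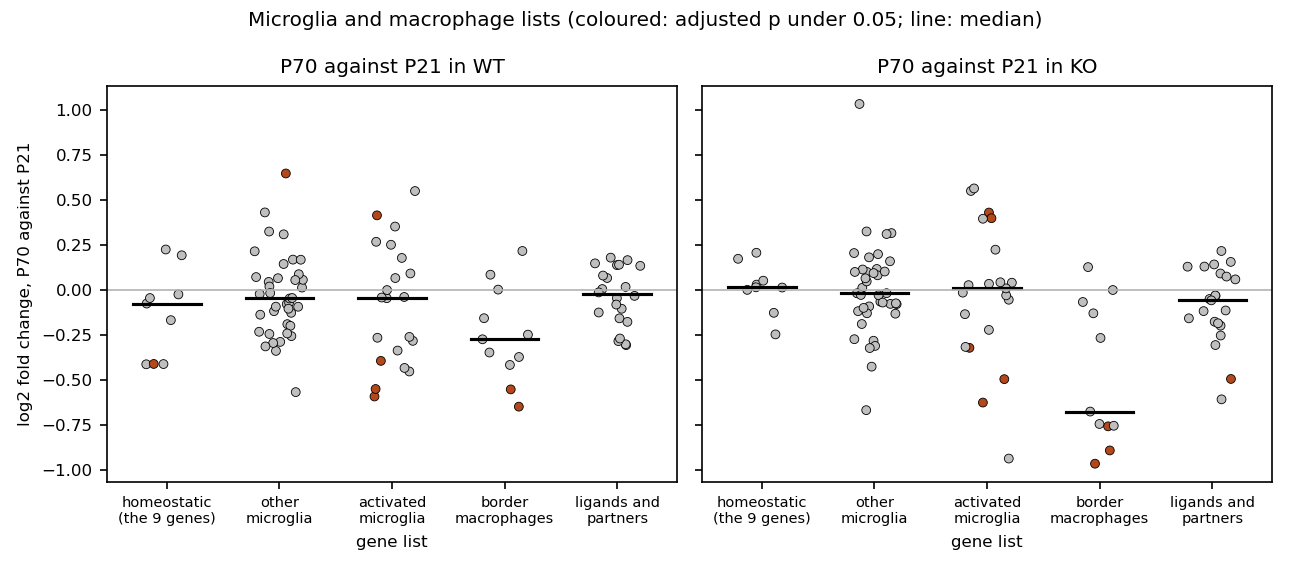
Log2 fold change from P21 to P70 (vertical axes) of each tested gene in 5 lists (horizontal axes), in WT mice (left) and KO mice (right). Each point is a gene, coloured points have an adjusted p under 0.05 and the line is the median, which for border macrophages is -0.27 in WT and -0.67 in KO mice and for the 9 homeostatic genes -0.07 and 0.02.

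Genes of blood cells and of dividing cells also differed between the ages, and their part in the levels of the 9 genes was not tested. Over all genes tested, 5.53% rose and 5.62% fell in WT mice, and 5.47% rose and 6.4% fell in KO mice. Red blood cell genes fell, 7 of 7 in WT mice and 6 of 7 in KO mice, with median log2 changes of -1.95 and -0.94, and 4 of 8 genes of proliferating cells fell in each genotype. The count of red blood cell genes in KO mice was 3 without P21 KO replicate 3, without P21 KO replicate 4 or without P70 KO replicate 4, and that of proliferating cells in WT mice was 2 without P21 WT replicate 3, 4 or 5. Of 12 monocyte and neutrophil genes 5 were in the table, and they summed to 12.4 to 82.4 normalized counts per mouse, against 4057 or more for the homeostatic microglia genes. Oligodendrocyte genes fell in both genotypes, 9 of 10 in WT and 9 of 10 in KO mice, with medians of -1.11 and -1.28. Of 6 oligodendrocyte precursor genes 4 fell in WT and 5 in KO mice. Astrocyte genes had 1 of 10 that rose in each genotype, neuronal genes 1 that rose and 2 that fell in WT and 2 of each in KO mice, and of 10 endothelial genes 2 fell in WT and 3 in KO mice. Of 8 choroid plexus genes 1 rose in each genotype. These small counts moved when 1 mouse was left out, to 0 to 2 for astrocyte and choroid plexus genes, 2 to 5 for neuronal genes and 1 to 4 for endothelial genes over both genotypes. Between KO and WT mice none of the genes of these lists passed at either age in limma.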

How the data were processed

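RNA from whole brains of 20 mice was purified by poly-A selection, made into unstranded TruSeq RNA v2 libraries and sequenced as paired ends on an Illumina HiSeq. For the deposited signal values the authors ran Salmon 1.1.0 against GRCm38, with its correction for GC bias switched on. The authors then brought the estimates to gene level through tximport and scaled them with DESeq2, which gave normalized counts. For the authors' run, the submitters' processing notes name DESeq2 1.26.0 and R 3.6.2. Of 19463 gene identifiers 19447 matched a symbol in GENCODE M21. Columns were matched to mice by title. The values also carry factors that differ between genes, which hid the whole reads, and a test for normalized values replaced a count test.

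Genes with a mean of at least 10 were tested with limma 3.58.1 (R 4.3.3, trended eBayes) on log2(normalized count + 1), with Benjamini-Hochberg adjustment over all genes and a threshold of 0.05. Fold changes on this scale understate those of low genes. KO and WT mice were compared within each age, and ages and the interaction in 1 fit of all 20 mice. Single genes were also tested by exact permutation of the mice. The labels name separate mice but give no litter, extraction or sequencing batch, so age and a batch cannot be told apart. The procedure was tested on simulated data. Alternatives were other pseudocounts, filters and scalings, no trend, a replicate block, 1 fit for all groups or a fit for each genotype, each mouse left out, and both P70 replicate 5 mice left out. Removal of a smooth trend on GC content (alone or with the block) was chosen after seeing the data. The members and lists were chosen with earlier results of these data known. Genes were named if they were members, ligands (Csf1, Il34, Cx3cl1), Katnal2, the 10 genes most like the members, or, in each list, up to 4 genes past the threshold per direction, or else the 2 with the smallest p, and only some of these are given. Results for 2 of these genes are not reported here. Hmgxb3 was added because it overlaps Csf1r.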

Additional observations from a re-analysis of the deposited data

Results flagged for a closer look

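In 3 of the 36 groups of 5 mice formed by the 9 genes and 4 groups, 1 mouse lay further from the rest than Dixon's critical value of 0.71 of the range allows, where chance flags about 1 group in 20. Tmem119 in P21 WT replicate 4 was the lowest of its group with 364 normalized counts, at a gap of 0.742 of the range from the next mouse at 439. Csf1r in P70 WT replicate 2 was the lowest with 1722 normalized counts, at a gap of 0.845 from the next at 2038. Siglech in P70 WT replicate 1 was the highest with 285 normalized counts, at a gap of 0.818 from the next at 205.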

How the results depend on the processing

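Of the homeostatic microglia genes, P2ry13 between ages in WT mice passed under 19 of 22 alternatives, with a log2 change of -0.46 to -0.34, and the 3 that lost it each left out 1 mouse. The number of the 9 genes that passed in that comparison was 2 instead of 1 under upper quartile rescaling, without both P70 replicate 5 mice, with the GC trend removed, and with the GC trend and the replicate block, P2ry12 being the added gene, and 0 to 3 when 1 mouse was left out. Over all genes, 3731 passed in WT and 3879 in KO mice between ages without both P70 replicate 5 mice, and 2993 in WT mice with the GC trend and the block. Between KO and WT mice 1 gene instead of 0 passed at P70 without both replicate 5 mice, and 0 to 1 at P21 when 1 mouse was left out. Of the homeostatic microglia genes 0 passed between genotypes at either age, between ages in KO mice or in the interaction under any alternative run. The cause of these shifts was not tested. Depth is known only approximately and was higher at P21 than at P70, so no counting interval is given, and a difference between ages cannot be told apart from one of depth or batch.

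Same-numbered KO and WT mice were not paired by the labels, and their deviations correlated by -0.009 to 0.26 at P21 and by 0.075 to 0.705 at P70, where replicate 5 gave the highest value. Each mouse was also compared with all 5 mice of the other genotype at its age. The best match had the same number for 5 of 10 mice at P21 and 7 of 10 at P70. Whether same-numbered mice shared a litter or a batch was not tested. With the replicate block 2 of the 9 genes passed between ages in WT mice, P2ry12 having an adjusted p of 0.0111 in limma, and 2290 genes in all, while 0 passed between genotypes and in the interaction.

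Only differences near 0 and outside the threshold changed sign. The GC trend, with or without the block, gave -0.0088 for Tmem119 between genotypes at P70, 0.01 for Siglech between ages in WT, and -0.0323 for Csf1r and -0.0212 for Tyrobp in KO mice. Without both replicate 5 mice these were 0.0024 for Siglech, -0.0213 for Csf1r and -0.0121 for Tyrobp, and the interaction of Trem2 was 0.0039. Quantile normalization gave -0.0069 for Csf1r between ages in KO mice, and upper quartile rescaling gave interactions of 0.0029 for Tmem119 and 0.0042 for Trem2. Leaving out 1 mouse gave the following ranges. At P21 they were -0.0737 to 0.0562 for P2ry12, -0.071 to 0.0166 for P2ry13, -0.0667 to 0.0962 for Tmem119, -0.0731 to 0.0802 for Cx3cr1, -0.0967 to 0.0199 for Csf1r, -0.1224 to 0.024 for Gpr34, -0.0313 to 0.1663 for Trem2 and -0.0497 to 0.1494 for Siglech. At P70 they were -0.0812 to 0.0951 for Tmem119, -0.0214 to 0.0842 for Csf1r, -0.1014 to 0.2123 for Trem2 and -0.0097 to 0.1921 for Siglech. Between ages in WT mice they were -0.1415 to 0.0546 for Tyrobp and -0.1337 to 0.0427 for Siglech. In KO mice they were -0.0441 to 0.1168 for P2ry13, -0.0456 to 0.1348 for Cx3cr1, -0.0604 to 0.0452 for Csf1r, -0.0312 to 0.0624 for Tyrobp and -0.091 to 0.1081 for Siglech. In the interaction they were -0.1064 to 0.0723 for Tmem119, -0.1753 to 0.1384 for Trem2, -0.039 to 0.1571 for Tyrobp and -0.0671 to 0.148 for Siglech.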
